A study of Vitis vinifera with 12 samples.

Results

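The copper-protein miRNAs miR397, miR398 and miR408 were followed over 6 tissues of grapevine (Vitis vinifera, cv Corvina) on a custom oligonucleotide array. Their probes were found by sequence: a perfect match probe (called Nat by the authors) was a member if its complement shared at least 16 contiguous bases with a mature sequence of one of these miRNAs, either as predicted by homology or as most often read in leaf small RNA. The 4 mature miRNAs, of 68 that have such a probe by this measure, had 15 probes with 11 distinct sequences, among 1952 perfect match probes with 1584 distinct sequences. They comprised 3 sequences for miR397a, 3 for miR398a, 3 for miR398b and 2 for miR408, and for each miRNA the probe complementary to the whole predicted sequence (for miR408, to the whole sequenced form) is called here the lead probe.

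Plant miRNAs are cut from hairpin precursors and, loaded into an Argonaute protein, guide the cleavage of complementary mRNAs. In Arabidopsis, miR397 targets laccase mRNAs, miR398 targets mRNAs of copper/zinc superoxide dismutases, and miR408 targets mRNAs of plantacyanin and laccases, and all of these encode proteins that bind copper. There the genes for the 3 miRNAs are switched on by the transcription factor SPL7 when copper is scarce, so that less copper goes into proteins that the plant can spare. The targets themselves were not measured on this array.

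Roots were pooled from plants cultivated in vitro. The other tissues came from the field: a pool of leaves of plants that had not yet flowered, young inflorescences taken 3 weeks before flowering, and pools of berries harvested 5 weeks (green), 9 weeks (veraison, the onset of ripening) and 15 weeks (mature) after flowering, with their seeds removed. Each tissue had 2 arrays, each with low molecular weight RNA (LMW-RNA) of its own extraction, labelled with Cy5. The sources used here do not say if separate plants stood behind the 2 extractions, so the p-values measure the spread between these extractions and their arrays. Root tissue and growth in vitro cannot be told apart in this design, and in a mixed tissue fewer cells that hold a miRNA cannot be told apart from less of it per cell. Slides were stripped and used again, and the sources used here do not say which slide and round each array came from.

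The 4 sequences below are those that the lead probes are complementary to, written as DNA, with the seed (bases 2 to 8) in capitals. For miR397a, miR398a and miR398b they are the predicted forms.
miR397a: tCATTGAGtgcagcgttgatg
miR398a: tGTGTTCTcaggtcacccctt
miR398b: tGTGTTCTcaggtcgcccctg
miR408: tGCACTGCctcttccctggc
As predicted, miR398a and miR398b have the same seed and 19 of 21 bases in common. Counted from the 5' end of predicted miR398a, predicted miR398b differs from it by A15G and T21G. The lead sequences of miR397a and miR408 share neither this seed nor each other's. The lead probe of miR408 covers a further base upstream of the sequence shown.

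The study sequenced small RNA from leaves of another clone, grown in vitro, and not from the field leaves of cv Corvina used on the array. For 3 of the miRNAs the form most often sequenced there is shifted against the lead target. These forms are shown because the probes cover them unequally, with bases 2 to 8 in capitals.
sequenced miR397a: aTTGAGTGcagcgttgatgaa
sequenced miR398a: tTCTCAGGtcacccctttggg
sequenced miR398b: cTCATGTGttctcaggtcgcc
The sequenced form starts 2 bases downstream of the lead target for miR397a, 4 bases downstream for miR398a and 4 bases upstream for miR398b, so that the lead shares 19, 17 and 17 bases with it. The sequenced forms of miR398a and miR398b thus start 8 bases apart and have different seeds. The study lists only a few leaf reads for each of these 2 forms, far fewer than for that of miR397a.

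Probes at other positions tile the same hairpins, and the 40 bases that they cover together are shown to place them, with the target of the lead probe in capitals.
miR397a precursor: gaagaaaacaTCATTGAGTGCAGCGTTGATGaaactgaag
miR398a precursor: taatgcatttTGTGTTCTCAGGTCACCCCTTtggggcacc
miR398b precursor: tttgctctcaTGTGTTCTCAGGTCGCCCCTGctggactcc
miR408 precursor: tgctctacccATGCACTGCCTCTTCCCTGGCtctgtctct
Positions are given as the start of a probe's target against that of the lead target, with negative values towards the 5' end of the precursor. Members lay at 0 for all 4 miRNAs, at +6 for miR397a and miR398a, and at -5 for miR398b. Those at +6 and -5 are members through the sequenced forms, with which they share 17 bases for miR397a, 19 for miR398a and 19 for miR398b. No genome was used, so the loci of these hairpins are not placed here.

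Each perfect match probe had a 2mut probe, the same sequence with 2 substituted bases, as its control. Those of the lead probes are shown because the specificity of the signal rests on them, with the substituted bases in capitals.
2mut of miR397a: catcaacCctgAactcaatga
2mut of miR398a: aaggTgtgaccCgagaacaca
2mut of miR398b: caggggAgaccCgagaacaca
2mut of miR408: gccagTgaagagCcagtgcat
Counted from the 5' end of the probe, the changes were G8C and C12A for miR397a, G5T and T12C for miR398a, C7A and T12C for miR398b, and G6T and G13C for miR408.

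Values are median fluorescence intensities of a probe's replicate spots in scanner units. For each array a background level was set 2 SD above the mean of the 14 negative and degradation controls. It ran from 666 to 4353 over the 12 arrays (median 1421), while the median of the perfect match probes ran from 3.5 to 232. A probe was called present on an array if it was above this level and over 1.2 times its 2mut probe. On both root arrays 9 of the 11 member sequences were present, against 3.85% of all 1584 sequences. In the other tissues 0 of the 11 were present on both arrays, where the share over all sequences was 0.947% in leaves, 1.89% in inflorescences, 2.59% in green berries, 3.35% at veraison and 2.34% in mature berries. Over single probes, 26 of 30 values in roots were above background, and 4 of 150 outside roots, all 4 on replicate 2 of green berries.

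**Figure D1:**
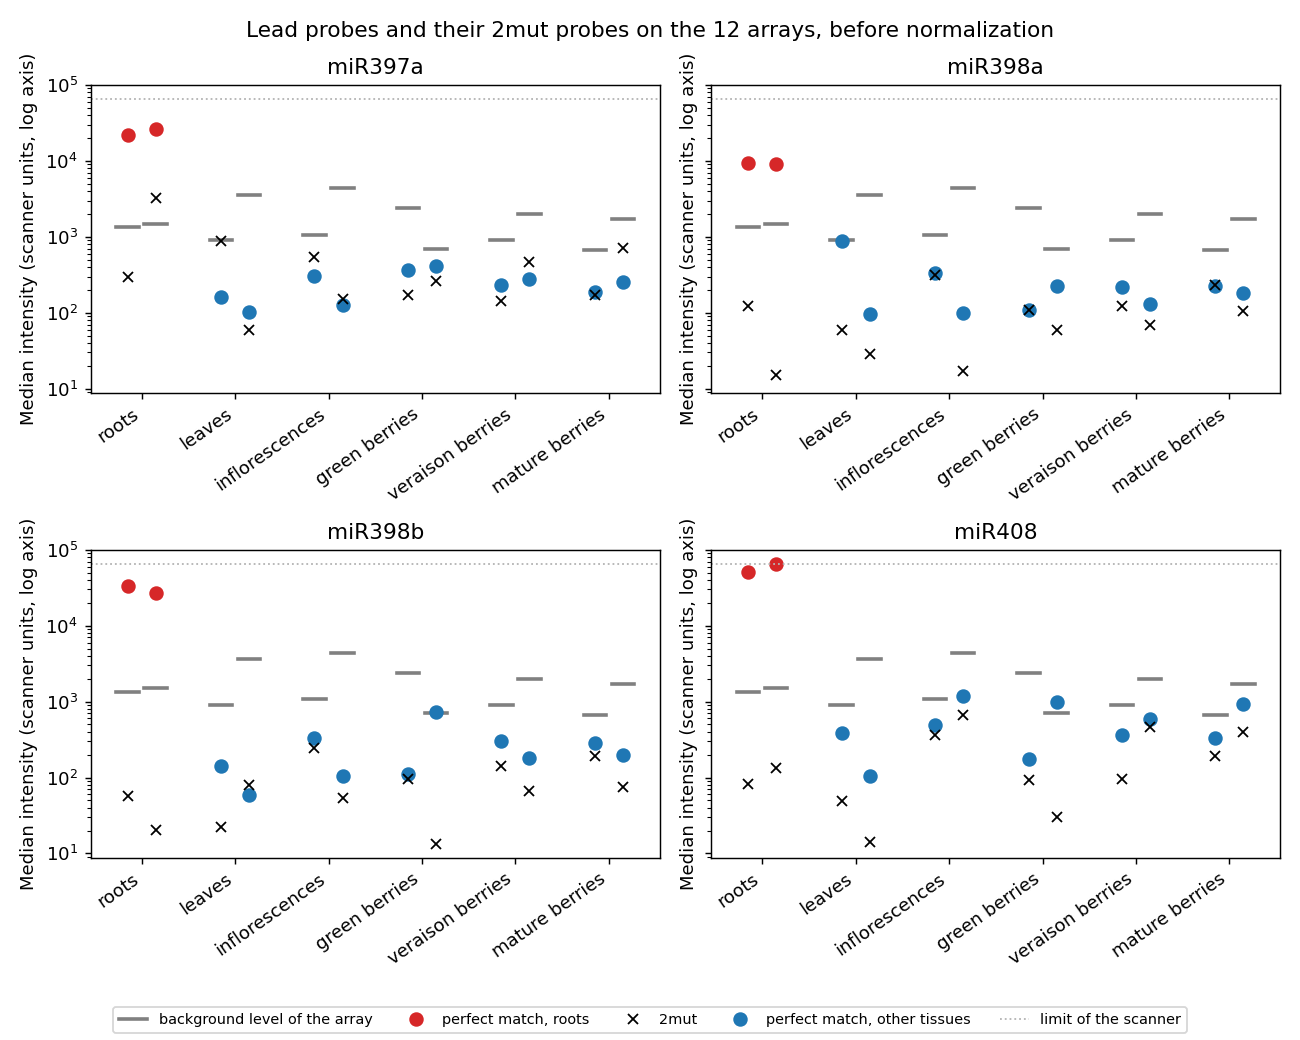
Intensity of the 4 lead probes (circles; roots in red, other tissues in blue) and of their 2mut probes (crosses) on each of the 12 arrays, in scanner units on a log axis, with 2 arrays per tissue, the background level of each array as a grey bar and the scanner's limit of 65535 as a dotted line. In roots the perfect match values lie between 9245 and 65535, above those of all other tissues, which reach 1179.5 at most.

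miR397a, a regulator of laccases, gave strong signals in roots alone. Its lead probe had 21783 and 26441.5 in roots (replicates 1 and 2), against 160.5 and 103.75 in leaves and 302.75 and 127.75 in inflorescences. In berries it had 367 and 417.5 at the green stage, 235 and 278 at veraison and 186 and 256 at maturity. Both root values were thus 16.2 and 17.7 times the background level of their array, and none of the 10 other values reached background. The lower root value was 52.2 times the highest value elsewhere, on replicate 2 of green berries.

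miR398a, one of the superoxide dismutase regulators, was the dimmest of the 4 lead probes in roots, although levels of different probes cannot be compared as amounts of RNA. It had 9522 and 9245 in roots, against 893.5 and 95.25 in leaves and 334 and 99.5 in inflorescences. In berries the values were 109 and 226 at the green stage, 218 and 132 at veraison and 223.5 and 179.75 at maturity. Replicate 1 of leaves stood out at 0.98 times its background level, while the other leaf array was at 0.03 times. The lower root value was 10.3 times this leaf value.

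The lead probe of miR398b, the other regulator of superoxide dismutases, had 33658 and 26569 in roots, against 140.5 and 58.75 in leaves and 334.5 and 105.5 in inflorescences. In berries it had 111 and 736.5 at the green stage, 300 and 178.5 at veraison and 289 and 197.5 at maturity. The value on replicate 2 of green berries was the only one outside roots above background, at 1.06 times that level. Its 2mut probe had 13.5 there, and 95.5 on replicate 1, whose background level was 2374.

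miR408, a regulator of plantacyanin, had the brightest lead probe in roots. It had 50197 and 65535 in roots, against 389 and 104.5 in leaves and 494 and 1179.5 in inflorescences. The value on replicate 2 of roots is the scanner's limit, so before normalization it is a lower bound. Quantile normalization gave the 3 perfect match probes at the limit on that array the same value. Normalized differences and folds that use it may thus be too low or too high. In berries the probe had 177.5 and 992.5 at the green stage, 361 and 597.5 at veraison and 335 and 926 at maturity. Replicate 2 of green berries was above background, at 1.42 times that level with a 2mut value of 30, and no other array outside roots was. The background level was 697 on that array and 4353 on replicate 2 of inflorescences, where the value of 1179.5 was the higher one.

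The question asked of leaves, inflorescences and roots was which miRNAs differ among these organs. After quantile normalization, limma's moderated F test called 9 of the 11 member sequences, with adjusted p from 3.67e-05 for miR397a and the -5 probe of miR398b to 0.00175 for the lead probe of miR398a. The test called 27.2% of the 92 sequences tested. Sequences were tested if present on both arrays of at least 1 tissue, which the 9 members were in roots only, so that they entered through the tissue where they are bright. Without this filter, limma called 10 of the 11 members among 1584 sequences, of which it called 3.85%. The tenth was miR397a at +6 (adjusted p = 0.00016), and miR398a at +6 was not called (adjusted p = 0.62). In roots the 2mut probes of miR397a at +6 kept 11.8% and 19.9% of the signal on replicate 1, and 59.4% and 52.2% on replicate 2.

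Roots were higher than every other tissue for the same 9 member sequences in each of 5 contrasts of the same fit. As above, these 9 entered the fit through roots. Over all 92 sequences, limma called 14.1% higher in roots than in leaves, 16.3% higher than in inflorescences, 14.1% higher than in green berries, 14.1% higher than at veraison and 14.1% higher than in mature berries. Both root arrays were above all 10 other arrays after normalization for these 9 members, as for 13 of the 92 sequences (14.1%). Among all 11 members this held for 10, all but miR398a at +6, and among all 1584 sequences for 3.47%. Without the filter, limma called the same 9 and miR397a at +6 higher in roots in all 5 contrasts. The highest adjusted p was 0.0385, for the lead probe of miR398a against leaves. Over all 1584 sequences it called 28 against leaves, 31 against inflorescences, 24 against green berries, 31 against veraison and 24 against mature berries.

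On the log2 scale of normalized intensity, the lead probe of miR397a averaged 14.09 ± 0.00 in roots, where it held the same rank on both arrays, and 7.81 ± 0.40 in leaves (SD, n = 2 each). The difference was 6.27 (standard error 0.65, limma adjusted p = 5.75e-05). This probe, like the other lead probes, entered the fit through roots. Without the filter limma gave it an adjusted p of 0.000217. As no leaf array was above background, the fold is a bound, with each leaf array set at the lowest normalized signal above background. By this measure miR397a was at least 7.93-fold higher in roots than in leaves, at least 8.62-fold higher than in inflorescences, at least 13.8-fold than in green berries, at least 12.4-fold than at veraison and at least 9.41-fold than in mature berries.

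For miR398a the mean was 12.82 ± 0.62 in roots and 8.64 ± 1.70 in leaves (SD, n = 2 each). This gave the smallest of the differences between roots and leaves among the lead probes, 4.18 (standard error 0.90, limma adjusted p = 0.00521), and it missed the threshold without replicate 1 of roots (3.71, adjusted p = 0.0685). With all arrays but without the filter, limma gave an adjusted p of 0.0385 for roots against leaves. The bounds were at least 3.29-fold over leaves, 3.58-fold over inflorescences, 5.73-fold over green berries, 5.15-fold over veraison and 3.91-fold over mature berries.

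For miR398b the mean was 14.50 ± 0.41 in roots and 7.41 ± 0.73 in leaves (SD, n = 2 each), a difference of 7.09 (standard error 0.96, limma adjusted p = 0.000163). Without the filter limma gave an adjusted p of 0.00283. Roots were at least 10.5-fold higher than leaves, at least 11.4-fold higher than inflorescences, at least 16.5-fold higher than veraison and at least 12.5-fold higher than mature berries. Over green berries, with 1 of 2 arrays above background, the bound was at least 17.7-fold.

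miR408 averaged 15.58 ± 0.48 in roots and 8.24 ± 0.98 in leaves (SD, n = 2 each), a difference of 7.34 (standard error 0.93, limma adjusted p = 0.000108). Without the filter limma gave an adjusted p of 0.00169. Its bounds take the normalized value at the scanner's limit as it stands. They were at least 22.3-fold over leaves, 24.3-fold over inflorescences, 34.9-fold over veraison and 26.5-fold over mature berries. Over green berries the bound was at least 31.4-fold, again with 1 of 2 green arrays above background. The 95% intervals of the 4 lead probes overlapped in every contrast, and differences between the miRNAs were not tested.

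**Figure D2:**
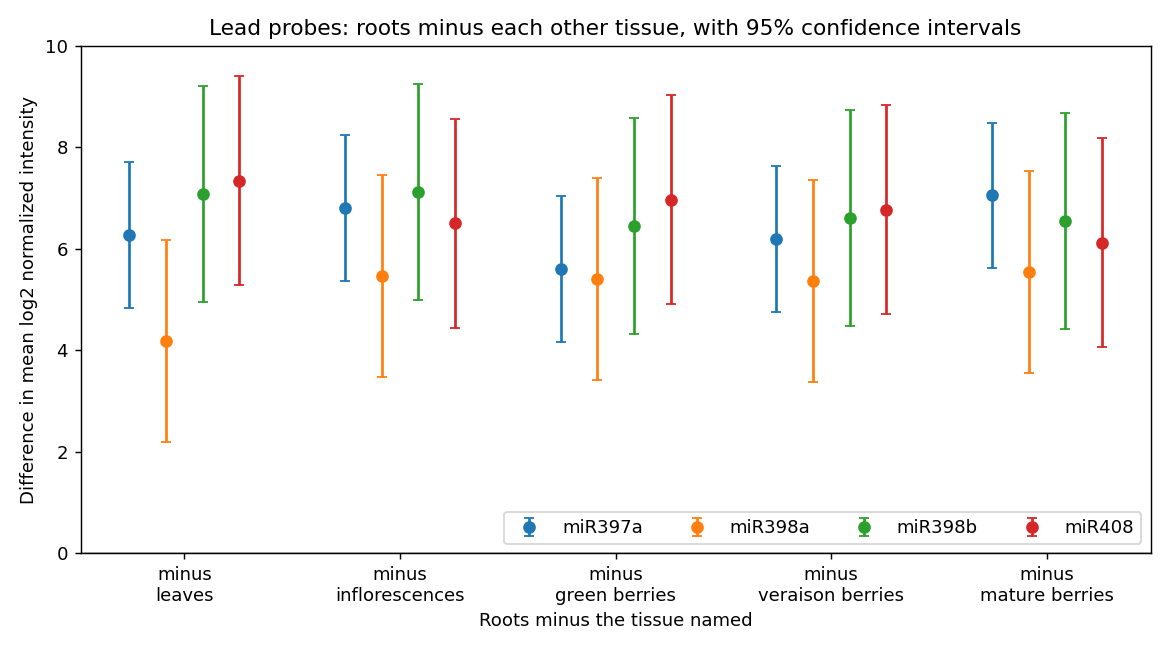
Difference in mean log2 normalized intensity between roots and each other tissue for the 4 lead probes, with 95% confidence intervals from limma's fit of 6 tissues with 2 arrays each. The 4 probes entered this fit through roots. All 20 intervals lie above 0, the lowest bound being 2.19 for miR398a against leaves.

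Among the tissues other than roots no order could be set. In the order of its mean log2 intensities, miR397a had 8.48 in green berries, 7.89 at veraison, 7.81 in leaves, 7.28 in inflorescences and 7.04 in mature berries. For miR398a leaves came next to roots with 8.64, and the 4 remaining tissues lay between 7.27 and 7.45. For miR398b all 5 lay between 7.38 and 8.05, with green berries highest. miR408 had 9.46 in mature berries, 9.08 in inflorescences, 8.81 at veraison, 8.61 in green berries and 8.24 in leaves. Over the 10 pairs of tissues without roots, limma called 0 of 90 tests of a member (smallest adjusted p = 0.332; 2 of the 90 had an unadjusted p under 0.05), against 1.96% of the tests over all 92 sequences. Nearly all of these values lie under the background level. For miR397a the 2mut of the lead was brighter than the lead on some of these arrays.

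Berry ripening was the second comparison of the study. limma's moderated F test over green, veraison and mature berries called 0 of the 9 members tested and 0% of the 92 sequences, of which 4 had an unadjusted p under 0.05, none of them a member. The methods' one-way test at an unadjusted p under 0.05 called 6 of the 92 and 0 of the members. The members' adjusted p ran from 0.941 to 0.998. On the log2 scale the lead probe of miR397a averaged 8.48 ± 0.49 in green berries, 7.89 ± 0.24 at veraison and 7.04 ± 1.05 in mature berries (SD, n = 2 each). Mature minus green was -1.44 for miR397a (95% interval -2.88 to -0.004, adjusted p = 0.859), the largest of the 4 in size. It was -0.14 for miR398a (-2.13 to 1.86), -0.10 for miR398b (-2.23 to 2.02) and 0.85 for miR408 (-1.21 to 2.90). The 2 green arrays of miR398b and miR408 differed more from each other than the stages did, with an SD of 2.15 and 2.09 on the log2 scale. Intervals of this width leave changes of several-fold undetectable, and the signals were mostly under background.

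The probes of the same miRNA behaved alike over the tissues, with exceptions at the +6 position. For miR397a, a pair of probes of identical sequence, 1 base shorter than the lead, had 10125 and 15226.5 on replicate 1 of roots and 11126.5 and 16159 on replicate 2. They thus differed 1.50 and 1.45 times on the same array, and the 4 pairs of identical probes among the members differed 1.05 to 1.50 times in roots. For the 20-base probe of miR398b at 0, the 2 probes had 25807.5 and 28957 on replicate 1 and 22313 and 23619.5 on replicate 2. That of miR398a had 8429 and 7240 in roots, and that of miR408 had 30065 and 65535, again at the limit on replicate 2. The SD over the replicate spots of a lead probe in roots was 5.46% to 21.7% of its median, leaving out the saturated value.

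**Figure D3:**
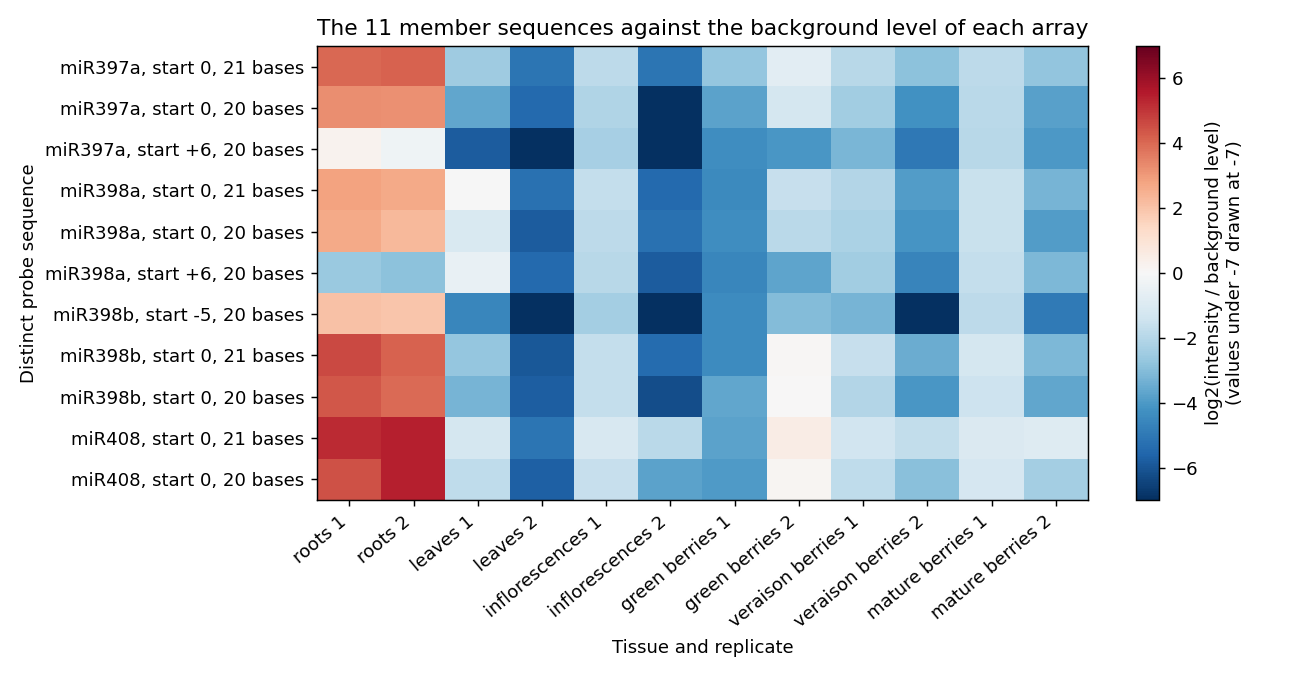
The 11 distinct member sequences (rows, by start position and length) on the 12 arrays (columns, roots at the left), coloured by log2 of intensity over the background level of the array, with probes of identical sequence averaged and values under -7 drawn at -7. Red cells, above background, fill both root columns for 9 sequences, and outside roots faint red occurs on replicate 2 of green berries only.

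Along the precursors, the signal in roots was kept in part on probes moved towards the 5' end and lost on those moved further or the other way. At 0, the 20-base probes had 51.6% to 88.5% of the lead signal where the lead was below the scanner's limit. At -5 the probe of miR398b, a member that shares more bases with the sequenced form (19) than the lead does (17), had means of 5616.5 and 5749.25 in roots, or 16.7% and 21.6% of the lead. The corresponding probes of the other miRNAs share 14 or 15 bases with the mature sequences and are no members. They had 13837 and 12565 for miR397a (63.5% and 47.5% of the lead), 2760 and 2838 for miR398a (29.0% and 30.7%), and 15316 and 44104 for miR408 (30.5% on replicate 1, with the lead at the limit on replicate 2). All 8 values at -5 were above background. In miR397a the share at -5 was close to that of the 20-base probe at 0, which was 58.2% and 51.6%.

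The drop was steeper at +6, towards the 3' end, than at -5. At +6 the members of miR397a had means of 1576 and 1232.5 in roots, 7.24% and 4.66% of the lead, and the first was above background. For miR398a the member at +6, which shares 19 bases with the sequenced form against 17 for the lead, had 218.5 and 201.5, under background and 2.29% and 2.18% of the lead. The probes of miR398b at +6, no members, had 2068.75 and 1382, with replicate 1 above background, and that of miR408 had 467.5 and 643. At 10 bases to either side 0 of 16 values were above background. At -10 the share was at most 0.239% of the lead, and at +10 it was at most 0.342% except for miR398a, with 11.7% on replicate 1 and 2.20% on replicate 2. That probe of miR398a had 1111.5 and 203.5 in roots and more, 1798, on replicate 2 of leaves, all under background.

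**Figure D4:**
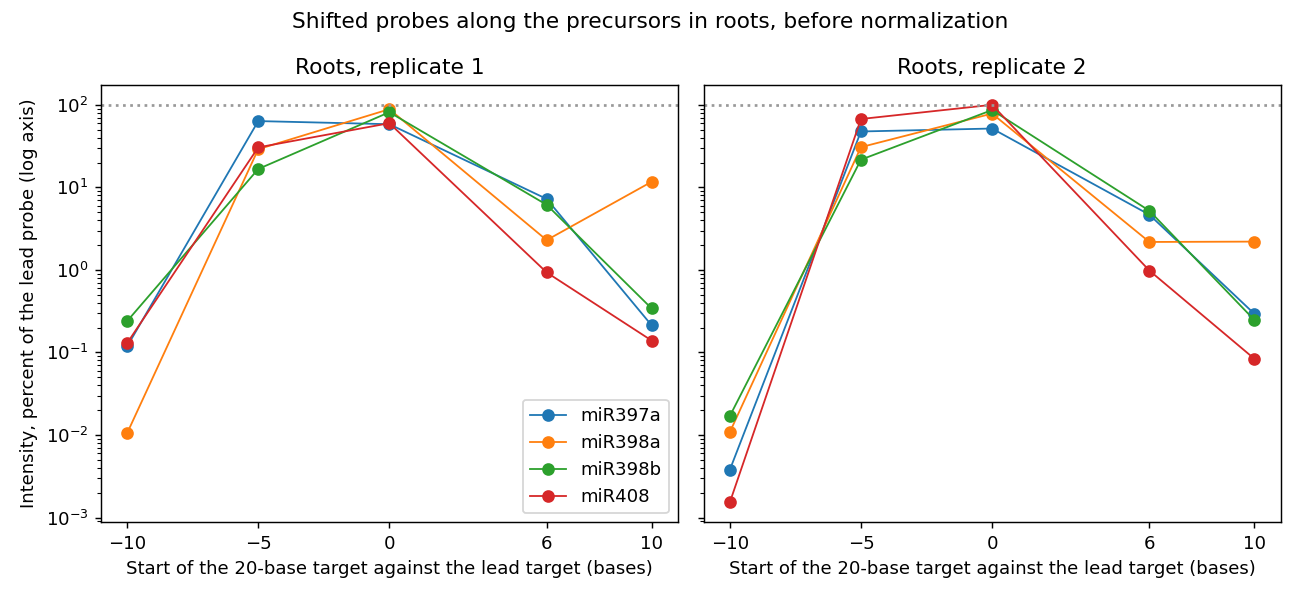
Intensity of the 20-base probes in percent of the lead probe (log axis) by the start of their target against the lead target, in bases, on replicate 1 (left) and replicate 2 (right) of roots, one line per miRNA. All 4 lines peak at 0 or, for miR397a on replicate 1, at -5 with 63.5%, and lie under 1% at -10; the lead of miR408 is at the scanner's limit on replicate 2.

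In leaves the +6 and -5 probes of miR398a stood in another order than in roots. On replicate 1 of leaves its probe at +6 had 638.5, against 893.5 on the lead probe and 437 on the 20-base probe at 0, whereas the probe at -5 had 37.5. On replicate 2 of leaves the +6 probe had 84, the lead 95.25 and the -5 probe 1. The probe at +10, which shares 15 bases with the sequenced form, had 332 on replicate 1 and 1798 on replicate 2. In roots the +6 and -5 probes stood the other way round, with 218.5 at +6 and 2760 at -5 on replicate 1. The sequenced form of miR398a was read, in few reads, from in vitro leaves of another clone, not from these field leaves. It shares 19 bases with the +6 probe, 17 with the lead and fewer than 14 with the -5 probe. None of these leaf values was above background (911.6 on replicate 1), and whether the +6 probe bound miR398a there was not tested.

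The 2mut probes kept little of the signal in roots for miR398a, miR398b and miR408. Over their 9 probes at 0 or -5, the 2mut values in roots lay between 1 and 182.5, at most 2.17% of the perfect match value, and 0 of 18 were above background. The lead probe of miR398a, at 9522 and 9245 in roots, had 122 and 15 on its 2mut probe, and that of miR398b, at 33658 and 26569, had 56.5 and 20.5. For miR408, at 50197 and 65535, the 2mut probe had 82 and 131.5. In these miRNAs 2 substitutions thus removed nearly all signal. Signal of the probes of miR398a from miR398b, or the reverse, was not tested, as no control carries the 2 bases by which their lead targets differ.

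miR397a was the exception. Its lead probe, at 21783 and 26441.5 in roots, had 294 and 3270.5 on the 2mut probe, so that 1.35% and 12.4% of the signal was left. The 20-base probes at 0 kept 3.65% and 6.70% on replicate 1 and 24.4% and 33.7% on replicate 2, where their 2mut probes had 3941 and 3745.5. All 3 of these 2mut values on replicate 2 of roots were above the background level of 1494, and all 3 perfect match values were at least 2.97 times their own control. At +6 the 2mut probes kept 11.8% and 19.9% on replicate 1 and 59.4% and 52.2% on replicate 2, with all of these 2mut values under background. On replicate 1 of leaves the 2mut of the lead had 889 while the perfect match probe had 160.5, so that the control was the brighter one there. The same held on both inflorescence arrays (542 against 302.75 and 153 against 127.75). It also held on replicate 2 of veraison (460.75 against 278) and of mature berries (712.5 against 256). On the remaining arrays outside roots the perfect match probe was the brighter one.

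Outside the members, the pattern over the 12 arrays most like the mean of the 4 lead probes was that of probes of the same hairpins. By Pearson's r over the 12 arrays, among the 92 sequences tested, the first 12 were the 9 members and the 3 probes at -5 of miR408 (0.977), miR398a (0.961) and miR397a (0.938). The next was a probe that shares 19 bases with miR399b (r = 0.898), of a family that acts in phosphate homeostasis, with a mean log2 intensity of 11.02 in roots and 7.67 in leaves. It was the last of the 13 sequences with both root arrays above all others. The fifth, a probe that shares 20 bases with miR159a, a regulator of GAMYB-like factors, had r = 0.622, with 11.34 in roots and 10.32 in leaves. The 4 lead probes are part of the mean that they were ranked against, and the members entered the 92 sequences through roots. No conclusion is therefore drawn from the rank of the members. The correlations rest mostly on the 2 root arrays, and probes of a hairpin share bases.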

How the data were processed

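LMW-RNA of 6 tissues (12 arrays) was hybridized to a CombiMatrix 12K custom array and scanned with a Perkin Elmer ScanArray. The authors deposited 1 file per array with linear, unnormalized intensities, given per probe as the median and SD over its spots. A further deposited table holds their intensities after quantile normalization over all probes. The sources used here do not say if local background was subtracted. The array files gave all main values, and the normalized table served as an alternative.

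Perfect match intensities were quantile-normalized with limma 3.58.1 in R 4.3.3, values under 1 set to 1, put on the log2 scale and averaged over probes of identical sequence. Sequences present on both arrays of at least 1 tissue were fitted with lmFit and eBayes to 6 groups. Moderated F tests compared organs and berry stages, contrasts compared pairs of tissues, and p-values were adjusted by Benjamini-Hochberg over all 92 sequences tested, with a threshold of 0.05. Shifted, opposite-strand and 2mut probes were described before normalization, with no test. The number of arrays, and signal over background, limit the precision. For a fold, each array of the lower group that was under background was set at the higher of its own value and its lowest normalized signal above background, and such a fold is a bound.

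The named probes were the members and the 5 other tested sequences with the highest correlation with the mean of the lead probes. Members and lists were chosen with earlier results of these data known. Alternatives covered the scaling, the floor, the filter, the background level, the arrays in the fit, array weights, a replicate block, the methods' one-way test, the overlap that makes a member, and leaving out each array. The fit was tested on simulated data.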

Additional observations from a re-analysis of the deposited data

Results flagged for a closer look

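Signals above the background level of an array were also seen on probes outside the comparisons. The opposite-strand probe of miR408, whose sequence is that of the miRNA itself, had 1234.5 on replicate 1 of leaves, where the background level was 911.6. On replicate 2 of leaves it had 1124, with a background level of 3586, and in roots it had 701 and 643, under background on both arrays. The probe of miR398a at +10 had 704 on replicate 1 of mature berries (background level 665.9) and 359.5 on replicate 2, which was under background.

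Among 2mut probes, those of miR397a were above background on replicate 2 of roots, with 3270.5 for the lead probe and 3745.5 and 3941 for the 20-base probes at 0 (background level 1494). The 2mut of the same 20-base probes had 1065.5 and 1061.5 on replicate 1 of leaves, above the level of 911.6, where the perfect match probes had 60 and 87. The 2mut of the opposite-strand probe of miR398a had 4753 on replicate 2 of inflorescences, where the background level was 4353. Each of these signals was above background on 1 of the 2 arrays of its tissue, and their source was not tested.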

How the results depend on the processing

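The number of members called among the organs was 9 to 10 when each array was left out in turn and 7 to 10 in the other settings, the lowest with the methods' one-way test after Benjamini-Hochberg. Members higher in roots numbered 8 to 10 against leaves and 9 to 10 against each other tissue, and members called among berry stages 0 in every setting tried. A member overlap of 14 bases gave 12 sequences present on both root arrays, and one of 18 bases gave 9. The lead probe of miR398a lost its call between roots and leaves with scaling on the positive controls (5.38, adjusted p = 0.0636) and without replicate 1 of roots (3.71, adjusted p = 0.0685); the cause was not tested. The other 19 differences between roots and a tissue for the lead probes kept their direction and their call in all 25 settings. The median of the 92 sequences moved between roots and another tissue by -0.58 to 4.46 on the log2 scale over the scalings. Beyond that shift, the differences were 5.93 to 7.40 for miR397a, 3.84 to 6.48 for miR398a, 6.23 to 7.68 for miR398b and 5.94 to 7.67 for miR408. Counts over all sequences were less stable: the organ test called 12 with scaling on the positive controls, 12 with the methods' one-way test after adjustment, 39 without replicate 2 of leaves, 46 with presence on 1 of 2 arrays, 55 with a background level without the brightest control and 61 with no filter, against 25. Replicate numbers did not pair the samples uniformly. Over 15 pairs of tissues the deviations of same-numbered arrays had correlations from -0.73 to 0.74 (median 0.03). With a replicate block 9 members were called among the organs and 0 among the berry stages. Some arrays of different tissues were still more alike than replicates were. Over the 92 sequences, replicate 2 of veraison and replicate 2 of mature berries had r = 0.921, against 0.683 to 0.858 between the 2 arrays of a tissue. Grouping of arrays across tissues was not tested, and a block by replicate number cannot remove grouping that crosses these numbers. Dim signal limits the comparisons outside roots, and saturation limits miR408 in roots.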
